A study of Mus musculus with 3 samples.

Results

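Of the 120910 H3K36me3 peaks of mouse regulatory T cells (Treg cells), 6220 were coding exon peaks. A peak was counted as one when it was under 10000 bp long and its midpoint lay in the coding sequence of a GENCODE M21 transcript, outside every annotated 3' UTR and more than 1 kb from every transcript start. The peaks came from chromatin immunoprecipitation sequencing (ChIP-seq) of CD3+CD4+ Treg cells of C57BL/6 mice with the genotype Foxp3-YFP, in which the reporter sits in Foxp3, the lineage gene of Treg cells. The reporter mice are the Foxp3 Cre-YFP line, in which Setd2 was not deleted, and the mice used were as a rule 6 to 12 weeks of age. Spleen and large intestine (LI) gave 1 library each, from cells pooled over mice of both sexes. An input library of splenic Treg chromatin was not analysed here. With 1 library per tissue no difference has a replicate check. All comparisons set 1 library against the other, and no p-value is given.

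H3K36me3 is the trimethylation of lysine 36 of histone H3, which the enzyme Setd2 writes while it travels with elongating RNA polymerase II. The mark therefore covers the bodies of transcribed genes and usually rises towards their 3' ends. Exons are short, richer in G and C than introns and more densely packed in nucleosomes, and H3K36me3 is bound by factors of splicing and DNA methylation. Coding exons are the translated pieces of a gene between which introns are spliced out.

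The junctions of an exon with its introns show what lies under these peaks. Of the 4521 coding exon peaks over an internal exon, 3699 (81.8%) held the whole exon between their ends. The exon was preceded by AG in 4511 of the 4521 (99.8%) and followed by GT in 4481 (99.1%), the usual letters at the ends of an intron. These letters follow from the annotation of the exons and are no test of the peaks. The junctions below, from the GRCm38 assembly and read 5′ to 3′ on the coding strand, belong to genes whose values carry the results: genes higher in LI (Il1rl1, Tigit, Prdm1 and Neb), genes higher in spleen (Bach2 and Itih5) and Foxp3. Capitals mark the exon and lower case the intron.
Il1rl1 exon 5 of 11, start, chr1:40442584-40442613, plus strand: ttgttgttgcttcagAACTGCAAAGCTCTC
Il1rl1 exon 5 of 11, end, chr1:40442747-40442776, plus strand: CATTCACAGTTGAAGgtaagctcttggctt
Tigit exon 2 of 4, start, chr16:43662291-43662320, minus strand: ttccctcacccatagGAGCCACAGCAGGCA
Tigit exon 2 of 4, end, chr16:43661961-43661990, minus strand: TCCAAGAAAGCTCAGgtatgtcctttgagg
Prdm1 exon 5 of 8, start, chr10:44447030-44447059, minus strand: tctccttttgaacagATCTATTCCAGAGAG
Prdm1 exon 5 of 8, end, chr10:44446777-44446806, minus strand: CAGTGATAAATCTCAgtaagtggattacag
Neb exon 94 of 157, start, chr2:52209638-52209667, minus strand: tctgcctctctgcagCTGAAATACAAAGCT
Neb exon 94 of 157, end, chr2:52209326-52209355, minus strand: GACCTTCAGAGTGACgtaagtaactgtcgt
Bach2 exon 3 of 5, start, chr4:32561763-32561792, plus strand: ctgtttgttttgcagGTCACGGCCAGGGGC
Bach2 exon 3 of 5, end, chr4:32563353-32563382, plus strand: GACAGGGGCCAGGAGgtagggaatcctaag
Itih5 exon 10 of 14, start, chr2:10240505-10240534, plus strand: gtcctacctctgcagGTTCTATGATGAGAT
Foxp3 exon 10 of 12, start, chrX:7592144-7592173, plus strand: gccaaccttctgcagAGTTCTTCCACAACA
Foxp3 exon 10 of 12, end, chrX:7592221-7592250, plus strand: ACCCTTATCCGATGGgtaagcagggcaata

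Within a peak the exon was richer in G and C than its surroundings. Over the 3674 peaks that held a whole internal exon and at least 50 bp more, the exon had a median GC content of 51.0% and the remainder of the peak 44.9%. The exon was the richer in 3031 of them (82.5%), by a median of 5.95 percentage points (quartiles 1.75 and 10.1). The same contrast held for the bases of the genome that the rule admits, with 50.8% in coding exons and 42.1% in introns. Because a peak also covers flanking intron, the whole coding exon peaks had a median GC content of 47.7%, close to the 46.1% of the 78908 intron peaks.

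Values are mean read coverage per peak in RPKM (reads per kilobase, scaled to sequencing depth), and each library was scaled to the mean of the column totals over all peaks. From the steps between low values, the depth was 29600000 mapped reads for the spleen library and 38100000 for the LI library. If each read covered 200 bp, the median coding exon peak held about 19.5 reads in spleen and 26.4 in LI, and peaks under 1 kb only 11.9 and 16.0. Across these 4205 short peaks the log2 values of spleen and LI had a Pearson correlation of 0.11 and a Spearman correlation of 0.16, which is a description over peaks of the same 2 libraries. Across the 2015 peaks of 1 kb or more these were 0.71 and 0.73. Peaks were called in either tissue, so a short peak can be in the set only because it was high in 1 library. Treg markers (Foxp3, Il2ra, Ctla4, Ikzf2, Cd4 and Cd3e) had peaks in 6 of 6 genes, with a summed signal of 1805 RPKM in spleen and 1452 in LI. Intestinal epithelium markers had peaks in 3 of 17 genes (37.8 and 71.7 RPKM), B cell markers in 6 of 13 (143 and 118), myeloid markers in 2 of 12 (201 and 256) and CD8 T and NK cell markers in 1 of 8 (21.4 and 9.31). The genes with a peak were Epcam, Vil1 and Cldn7 in the epithelial list and Cd79a, Cd79b, Pax5, Fcer2a, Ighm and Cd22 in the B cell list. In the other lists they were the myeloid genes Csf1r and Cx3cr1 and the T cell gene Cd8b1. The remaining listed genes of these cells had none, among them Krt8, Cdh1, Muc2, Ms4a1, Lyz2, Itgam and Cd8a. The part of such cells in the results below was not tested.

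Coding exons held many peaks for their size. The coding bases that the rule admits made up 0.810% of the genome and held 5.14% of the peaks (95% Wilson interval 5.02 to 5.27%), 6.35 times their share of bases. Introns made up 31.9% of the genome and held 65.3% of the peaks, 2.05 times their share. The bases include those of genes without a peak, since 9966 of 21853 protein-coding genes had any. Per base over all these genes, marked or not, coding exon peaks were 3.10 times as frequent as intron peaks, at 282 against 90.7 per Mb. These peaks were not confined to the exon: the median peak was 604 bp long with 41.1% of its bases in coding sequence, 2555 peaks had at least 50% there and 610 lay wholly in it. Intron peaks had a median length of 440 bp. A coding midpoint alone was met by 10344 peaks, of which 85 were 10000 bp or longer, 1728 of the others lay in a 3' UTR and a further 2311 lay within 1 kb of a start. At the length limit, the 14 members of 9000 bp or more had median values of 20.99 RPKM in spleen and 21.7 in LI, and the 15 peaks of 10000 to 11000 bp just outside had 25.9 and 20.97.

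The coding part of the exon under the peak had a median of 184 bp, with quartiles of 131 and 464 bp, close to the base-weighted median of 176 bp in the background. The whole exon, UTR included, had a median of 199 bp, with quartiles of 136 and 906 bp. The background was the 10.8 Mb of admitted coding sequence in the longest coding transcript of the 9966 protein-coding genes with any peak, and 6215 of the coding exon peaks lay in protein-coding genes. Exons with up to 100 coding bp had 474 peaks per Mb of coding bases, those of 101 to 150 bp 543, those of 151 to 200 bp 609 and those of 201 to 300 bp 642. The density was highest at 301 to 500 bp, with 769 per Mb, then 687 at 501 to 1000 bp, 606 at 1001 to 2000 bp and 391 above 2000 bp. Internal exons carried 4518 peaks (72.7%, 0.95 times their share of coding bases) and first exons 282 (4.54%, 0.97 times). Last exons carried 1182 (19.0%, 1.22 times) and single coding exons 233 (3.75%, 1.24 times). Where at least 2 coding transcripts of the gene spanned the peak, the exon was part of all of them in 3525 of 4054 peaks (87.0%). The 529 peaks over exons that at least 1 transcript leaves out had median values of 11.8 RPKM in spleen and 12.1 in LI, beside 11.8 and 11.8 over exons that none leaves out.

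**Figure D1:**
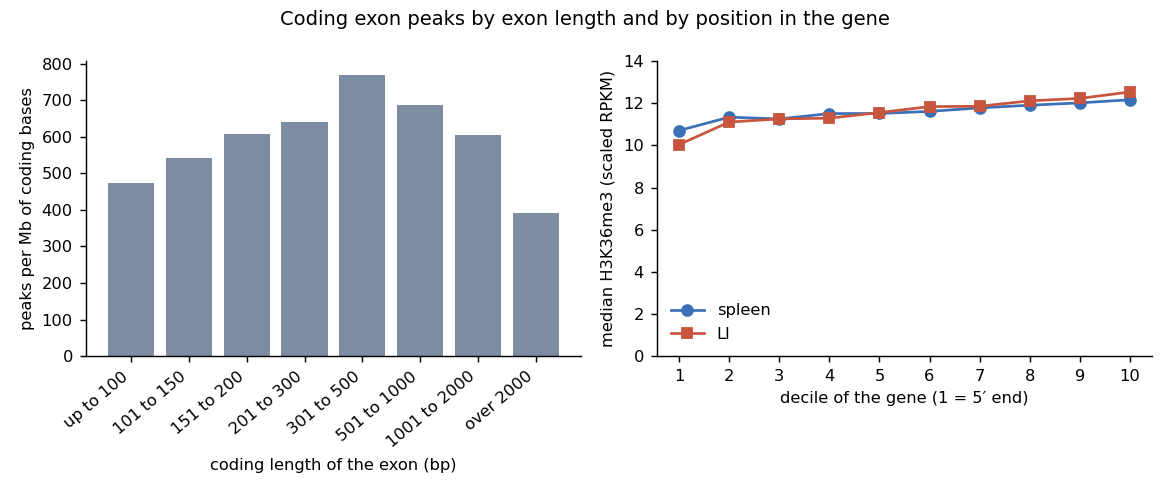
Left, coding exon peaks per Mb of admitted coding bases (bars) by the coding length of the exon in bp. Right, median scaled RPKM of coding exon peaks in spleen (circles) and LI (squares) by decile of the gene from its 5′ end. Density peaks at 301 to 500 bp, with 769 per Mb, and the median signal climbs from 10.7 to 12.2 RPKM in spleen and from 10.04 to 12.5 in LI.

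Along the gene, the signal of coding exon peaks rose towards the 3' end while their density hardly moved. The median position was 69.4% of the way from the start to the end of the gene, but coding bases are also concentrated there, and the density was 0.85 to 1.04 times the average in every decile. The median signal in the first decile of the gene was 10.7 RPKM in spleen and 10.04 in LI. In the last decile it was 12.2 in spleen and 12.5 in LI. Between these deciles median GC content rose from 47.3% to 49.6% and median peak length from 496 to 667.5 bp. The part of either in the signal was not tested.

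Peaks were spread thinly over genes. Of the 3746 genes with a coding exon peak, 2425 (64.7%) had 1 and 17 had 10 or more. Among the genes with the most were Neb (22), Ttn (21), Dst and Mdn1 (19 each), Herc2 (16), Herc1 (15), Mycbp2 and Vps13c (12 each), and Birc6 (11, level with other genes). Neb and Ttn encode nebulin and titin, giant proteins of the muscle sarcomere, Dst encodes a cytoskeletal linker, Mdn1 an AAA ATPase of ribosome assembly and Herc1 and Herc2 giant ubiquitin ligases. Neb had 1.17 peaks per kb of admitted coding sequence and Mdn1 had 1.40, beside 0.94 over all genes with a member. Ttn, with the largest coding sequence of these, had 0.22. Its peaks were short, with a median of 265 bp and about 14.4 reads over both libraries, and its introns held only 5 peaks, while those of Neb held 88.

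Among the longest exons were those of Ahnak, Zfp738, Usf3, Tnrc6b, Igsf9b, Zbtb1, Tbp, Zfp451 and Ino80d, from 17498 bp in Ahnak down to 11345 bp in Ino80d. Ahnak encodes a very large scaffold protein almost entirely in its last exon, and a peak of 8873 bp there had 18.2 RPKM in spleen and 27.1 in LI. Much of such an exon can be 3' UTR: the coding piece was 16623 bp in Ahnak, but 385 bp in Tnrc6b and 77 bp in Tbp, the TATA-binding protein. The peak in Tnrc6b, a partner of Argonaute proteins in microRNA silencing, had 26.7 RPKM in spleen and 33.2 in LI. The peak in Zbtb1, a transcription factor of lymphocyte development, was 2407 bp long with 19.8 and 18.4. Of the peaks in these named genes, the ones in Ahnak, Tnrc6b, Zbtb1 and Ino80d had more than 15 RPKM in both libraries.

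To compare exons with introns at the same level of transcription, the median of the coding exon peaks of a gene was set against the median of its intron peaks, in the 2632 genes with at least 3 intron peaks. Coding exon peaks carried more signal in both tissues. In spleen the median gene had a log2 difference of 0.25, that is 1.19-fold, with quartiles of -0.04 and 0.55, and coding exons were above introns in 1888 genes (71.7%). In LI it was also 0.25 (1.19-fold), with quartiles of -0.05 and 0.58, and 1866 genes (70.9%) were above. Of all 2632 genes, 1483 were above 0 in both libraries and 361 below 0 in both. The median over genes was 12.2 RPKM for coding exon peaks and 10.2 for intron peaks in spleen, and 11.96 and 9.98 in LI. Against the nearest intron peak on each side, in 1919 genes, the difference was 0.24 in spleen and 0.25 in LI.

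**Figure D2:**
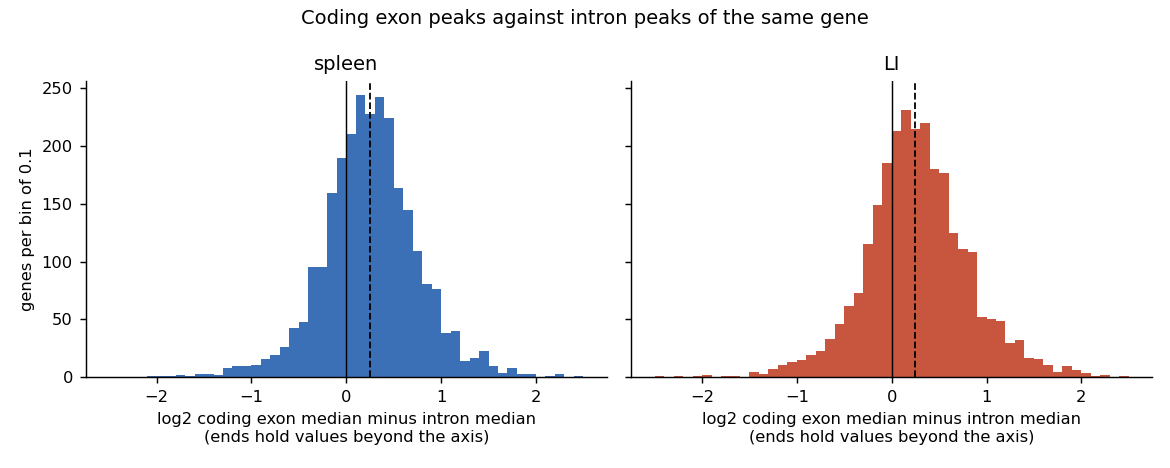
Number of genes (bars, bins of 0.1) by the log2 difference between the median coding exon peak and the median intron peak of the same gene, for spleen and LI, over 2632 genes. The dashed line is the median gene, at 0.25 in both libraries, and 71.7% of genes in spleen and 70.9% in LI lie above 0.

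Peak length moved with this difference. Coding exon peaks were longer than the intron peaks of their gene by a median of 216 bp, and coding exon peaks of 1 kb or more had median values of 15.4 RPKM in spleen and 15.7 in LI. Against intron peaks of similar length (within 1.5 times), the difference was 0.17 in spleen and 0.15 in LI, with 66.3% and 63.4% of 2303 genes above 0. It was 0.11 in spleen and 0.09 in LI for coding exon peaks under 1 kb, and 0.49 and 0.53 for those of 1 kb or more, each against all intron peaks of the gene. Against intron peaks of similar GC content (within 3 percentage points) it was 0.21 in spleen and 0.20 in LI.

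The excess over introns was larger for long exons. Where the coding piece was up to 300 bp, the median gene had a log2 difference of 0.19 in spleen and 0.17 in LI, over 2145 genes. With 301 to 1000 bp it was 0.40 and 0.47 over 552 genes, and above 1000 bp 0.55 and 0.70 over 391 genes. Against intron peaks of similar length these became 0.14 and 0.11, 0.27 and 0.30, and 0.24 and 0.28, so the longest class then lay just below the middle one in both libraries. Last exons had 0.40 in both libraries and internal exons 0.22 in both. Against introns of similar length, last exons had 0.19 in spleen and 0.21 in LI, and internal exons 0.15 and 0.13.

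Single genes departed far from the median. Genes were ranked among the 508 with at least 3 coding exon and 3 intron peaks. For this, the log2 values of each peak were averaged over both libraries before the medians of exon and intron peaks were taken. This mean difference can depart from the average of the differences seen in each library. The largest was that of Jarid2, which encodes a DNA-binding subunit of Polycomb repressive complex 2. Its 3 coding exon peaks had a median of 22.95 RPKM in spleen and 20.99 in LI, and its 28 intron peaks 9.76 and 8.30. The exon peaks over Jarid2 had 9.84, 23.0 and 24.1 RPKM in spleen and 6.13, 22.1 and 20.99 in LI, so the first of them lay at the level of the introns and the other two far above. Myo9b, an unconventional myosin, followed with 26.2 RPKM in exons and 11.6 in introns of the spleen, and 31.3 and 13.1 in LI. Atp2b4, a calcium pump of the plasma membrane, had 16.0 in exons and 5.39 in introns of the spleen, and 22.7 and 12.3 in LI. Rreb1, a zinc finger transcription factor, and Nin, which encodes the centrosomal protein ninein, were the next. The coding exon peaks of these 5 genes had median lengths of 754 to 4069 bp and their intron peaks 319 to 539 bp. Against introns of similar length the mean difference was still 0.61 in Jarid2, 0.72 in Myo9b and 0.99 in Atp2b4, but 0.38 in Nin, down from 1.14.

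At the other end stood Cntrl, Dlgap5, Dbt, Man2a1 and Kpna4. Cntrl encodes centriolin, a centrosomal protein, and its 4 coding exon peaks had a median of 7.47 RPKM in spleen and 9.12 in LI, below the 14.6 and 12.7 of its 19 intron peaks. Man2a1, a mannosidase of N-glycan processing, had 7.49 and 5.48 in exons against 10.3 and 9.42 in introns. Kpna4, a nuclear import receptor, had more signal in exons than in introns in spleen (13.02 against 10.8) and less in LI (7.15 against 9.95). The exon peaks of Kpna4 had a mean GC content of 32.3%. Against introns of similar length the mean log2 difference went from -0.81 to -0.28 in Cntrl and from -0.55 to -0.11 in Dbt, whose coding exon peaks had median lengths of 445.5 and 295 bp and intron peaks of 1164 and 706.5 bp. This mean stayed at -0.63 in Dlgap5 and -0.44 in Kpna4, and went from -0.50 to -0.36 in Man2a1. Taken in each library, the difference from all intron peaks of the gene was -0.22 in spleen and 0.03 in LI for Dbt. For Kpna4 it was 0.26 in spleen and -0.45 in LI.

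Between tissues, coding exon peaks as a whole were near balance. The log2 ratio of LI over spleen, with a pseudocount of 0.5 RPKM, had a median of 0.03 over the 6220 peaks (quartiles -0.34 and 0.37), beside -0.04 over intron peaks and -0.01 over all peaks. In LI, 454 coding exon peaks (7.30%) were over 2-fold higher, beside 9.05% of all peaks. In spleen, 415 (6.67%) were over 2-fold higher, beside 9.6% of all peaks. Nearly all were short: of the 2015 coding exon peaks of 1 kb or more, 45 (2.23%) were over 2-fold higher in LI and 8 (0.40%) in spleen. Over all peaks of 1 kb or more these shares were 1.78% in LI and 0.79% in spleen. Short coding exon peaks had log2 ratios with a standard deviation of 0.80, and the longer ones 0.39.

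The ratio moved with base composition more than with the kind of sequence. Coding exon peaks of 35 to 40% GC had a median log2 ratio of -0.32 and intron peaks of that class -0.36. At 45 to 50% GC these were 0.04 and 0.03, at 50 to 55% both were 0.16, and at 55 to 60% 0.28 and 0.27. Within a GC class, coding exon and intron peaks thus lay within 0.04 of each other from 35 to 65% GC. In single genes the ratio of coding exon peaks exceeded that of intron peaks by a median of 0.02 over 2632 genes, and against intron peaks of similar GC content the difference was -0.001. After the median ratio of each of 10 GC classes of all peaks was set to a common level, the median of coding exon peaks was -0.01.

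**Figure D3:**
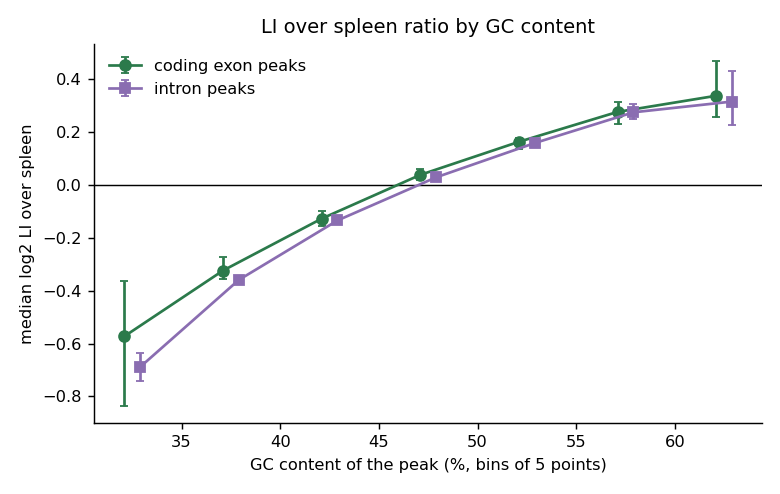
Median log2 ratio of LI over spleen (y axis) of coding exon peaks (circles) and intron peaks (squares) in bins of 5 percentage points of GC content (x axis), from 30 to 65%. Bars are 95% binomial intervals of the median over peaks. Both kinds rise together, from -0.32 and -0.36 at 35 to 40% to 0.28 and 0.27 at 55 to 60%.

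Exon class and length went along with this. Single coding exons had a median log2 ratio of 0.16 and last exons of 0.07, with median GC contents of 51.3% and 49.7%, while internal exons had 0.004 at 47.0%. Exons with up to 100 coding bp had -0.02 and those of 501 to 1000 bp 0.09, at 46.6% and 49.9% GC. In the last decile of the gene the median was 0.11 and in the first decile -0.13. Over 1000 coding bp, coding exon peaks exceeded the introns of their gene by 0.12 in log2 ratio, and by 0.02 with the GC classes levelled.

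The genes furthest towards LI were chosen among the 700 with at least 60 RPKM summed over their coding exon peaks and both libraries, by the bound nearest 0 of an approximate 95% counting interval, which covers counting error only. They were Neb, Zfp316, Dst, Snx9, Atxn1, Il1rl1, Plxna1, Cdc42bpg, Ptpn13 and Wdfy2. Over 2-fold higher in LI were the exon sums of 229 of all 3746 genes (6.11%), and over 2-fold higher in spleen those of 188 (5.02%).

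Neb led with 22 coding exon peaks that together had 119 RPKM in spleen and 311 in LI, a log2 ratio of 1.38 (1.21 to 1.56). Single peaks of Neb ranged from 2.53 to 9.74 RPKM in spleen, with a median of 5.18, and from 9.27 to 20.1 in LI, with a median of 13.5. All 22 were higher in LI, as were all 88 of its intron peaks, whose summed log2 ratio was 1.68. In pooled cells, more cells with the mark and more of the mark per cell cannot be told apart. Dst followed the same pattern, with 132 RPKM in spleen and 260 in LI over 19 coding exon peaks, all of them higher in LI. Ttn, by contrast, had 180 RPKM in spleen and 170 in LI, with 9 of 21 peaks higher in LI and an interval of the log2 ratio from -0.37 to 0.20.

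Il1rl1 encodes ST2, the receptor of interleukin 33 carried by many tissue Treg cells. Its 4 coding exon peaks lay over exons 5, 7, 10 and 11 of 11. They had 5.15, 5.22, 1.89 and 9.86 RPKM in spleen and 14.1, 12.7, 9.72 and 13.6 in LI. Each was higher in LI, by the least over the last exon, and the sums gave a log2 ratio of 1.16 (0.73 to 1.60), beside 1.25 over its 11 intron peaks. Snx9, a sorting nexin of endocytosis, had 17.8 RPKM in spleen and 44.9 in LI over 3 peaks, a log2 ratio of 1.31 (0.74 to 1.88). Plxna1, a semaphorin receptor, had 33.1 and 70.4 over 4 peaks. Zfp316, a zinc finger gene, had the largest ratio of the 10, at 1.60 (0.82 to 2.37), with 18.2 RPKM in spleen and 56.1 in LI. Its 3 peaks had a mean GC content of 70.9%, and its introns a log2 ratio of only 0.35. With the GC classes levelled its median peak had 0.93. This is a median of single peaks, so its distance from the ratio of the sums does not measure the part of GC content. Cdc42bpg likewise had 0.94 in exons and 0.29 in introns, at 58.4% GC.

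The genes furthest towards spleen were Itih5, Aff3, Fry, Tbxa2r, Baz2b, Ift80, Tns1, Ttc28, Utrn and Ap1g1. Itih5, which encodes a heavy chain of the inter-alpha-trypsin inhibitors that bind hyaluronan, had 5 coding exon peaks. They had 11.8, 14.02, 14.4, 12.4 and 11.1 RPKM in spleen and 2.06, 3.34, 4.96, 3.40 and 3.97 in LI. The sums, 63.7 and 17.7 RPKM, gave a log2 ratio of -1.82 (-2.51 to -1.13), and 14 of the 16 intron peaks were also higher in spleen. Aff3, a transcription elongation factor expressed in lymphocytes, had 15.3, 16.0 and 24.0 RPKM in spleen and 3.41, 6.84 and 10.7 in LI, a summed log2 ratio of -1.38 (-1.71 to -1.05). All 79 of its intron peaks were lower in LI. Baz2b, a bromodomain protein, had 7 coding exon peaks between 8.99 and 13.6 RPKM in spleen and between 3.37 and 5.73 in LI. Fry, whose product organises the cytoskeleton, had 6 between 8.97 and 20.3 in spleen and between 3.23 and 7.08 in LI. Tbxa2r, the thromboxane A2 receptor, had 1 peak with 47.6 RPKM in spleen and 18.5 in LI. Ap1g1, a clathrin adaptor subunit, had -0.88 over 3 coding exon peaks but -0.25 over 20 intron peaks.

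**Figure D4:**
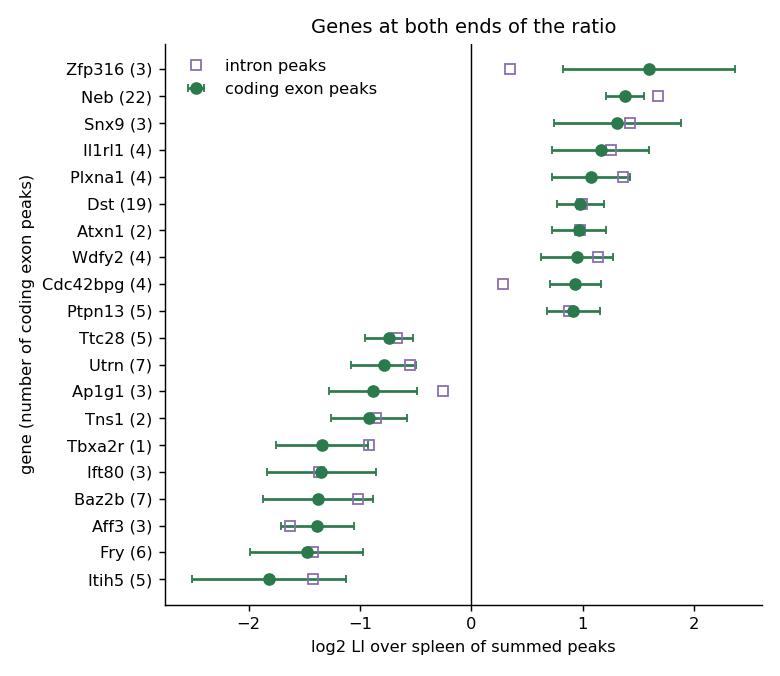
Log2 ratio of LI over spleen (x axis) of the summed coding exon peaks (circles, with approximate 95% counting intervals) and summed intron peaks (squares) of the 20 genes chosen as furthest towards either tissue, with the number of coding exon peaks in brackets. Introns lie on the same side of 0 as exons in each gene, at 1.68 in Neb and -1.63 in Aff3, and closer to 0 in Zfp316 (0.35), Cdc42bpg (0.29) and Ap1g1 (-0.25).

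The gene signatures of colonic and splenic Treg cells, which the study drew from expression data of other samples, also lay apart when coding exons alone were counted. Of 505 colonic signature symbols, 138 had a coding exon peak, and 196 of their 232 peaks (84.5%) were higher in LI, beside 51.9% of all coding exon peaks. Over 2-fold higher in LI were 91 of them, beside 9.05% of all peaks, and over 2-fold higher in spleen 4, beside 9.6%. The median log2 ratio was 0.81 (1790 intron peaks of the same genes: 0.98), from median values of 7.78 RPKM in spleen and 13.5 in LI. Summed by gene, 51 of the 138 were over 2-fold higher in LI, beside 6.11% of all genes with a coding exon peak, and 2 in spleen. Neb, Snx9, Il1rl1, Tigit and Prdm1 are on this list, as is Ahrr, the repressor of the aryl hydrocarbon receptor, chosen here after its values were seen. The 3 coding exon peaks of Ahrr ranged from 0.78 to 2.56 RPKM in spleen and from 11.4 to 16.6 in LI, and their sums of 4.27 and 41.6 gave a log2 ratio of 3.14 (2.60 to 3.69).

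Of 494 splenic signature symbols, 159 had a coding exon peak. Only 59 of their 239 peaks (24.7%) were higher in LI, beside 51.9% of all coding exon peaks. Over 2-fold higher in spleen were 36 of them, beside 6.67% of all coding exon peaks and 9.6% of all peaks. In LI 6 were over 2-fold higher, beside 7.30% and 9.05%. The median log2 ratio was -0.29 (1833 intron peaks: -0.56), from 13.3 RPKM in spleen and 10.4 in LI. By gene, 24 of the 159 were over 2-fold higher in spleen, beside 5.02% of all genes with a coding exon peak, and 5 in LI. Aff3, Ift80, Tbxa2r and Bach2 are on this list. Coding exon peaks and intron peaks went together over genes in general: over 2632 genes the median ratios of both correlated with a Pearson coefficient of 0.52 and a Spearman coefficient of 0.46. For the 508 genes with at least 3 coding exon peaks these were 0.76 and 0.63. Genes are not independent replicates, and both measures come from the same 2 libraries.

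**Figure D5:**
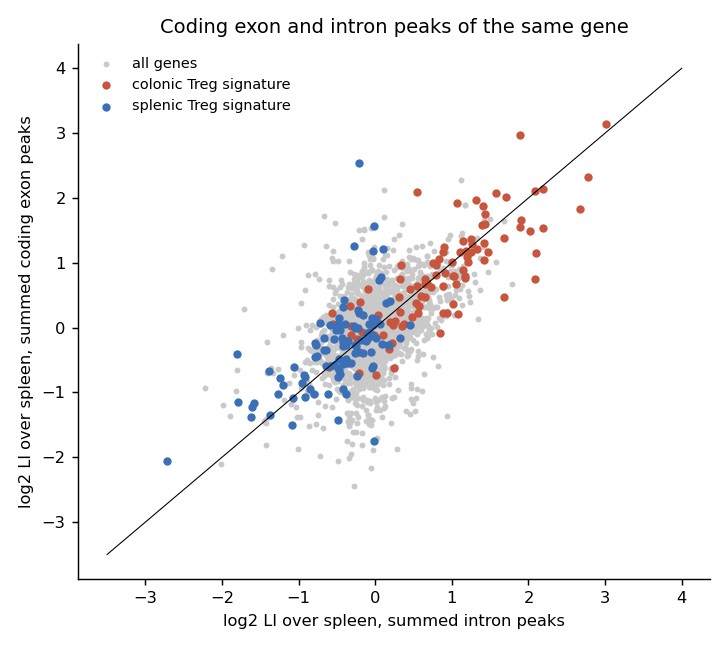
Log2 ratio of LI over spleen of summed intron peaks (x axis) and summed coding exon peaks (y axis) for 2632 genes with at least 3 intron peaks (grey), with 94 colonic (red) and 107 splenic (blue) signature genes marked. The line is equality. Most colonic signature genes lie in the upper right, up to Ahrr at 3.14, and splenic signature genes mostly at the lower left.

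Treg identity and effector genes leaned to LI: 11 of the 30 listed had a coding exon peak, and 18 of the 22 peaks (81.8%) were higher in LI, beside 51.9% of all coding exon peaks. Over 2-fold higher in LI were 8 of them, beside 9.05% of all peaks, and over 2-fold higher in spleen 2, beside 9.6%. The median log2 ratio was 0.80 (146 intron peaks of the same genes: 0.41). Il1rl1, Tigit, Prdm1, Lag3, Areg and Nt5e are also on the colonic list and Bach2 on the splenic one, so this is not a separate result. Tigit, an inhibitory receptor, had 6.47 and 8.29 RPKM in spleen and 14.7 and 23.3 in LI over exons 4 and 2, and a log2 ratio of 1.34 (0.85 to 1.82). Prdm1, which encodes the effector transcription factor Blimp-1, had 4.70 and 18.8 RPKM in spleen and 17.8 and 31.0 in LI over exons 5 and 8, with 1.04 (0.58 to 1.49). The inhibitory receptor Lag3 also had 1.04, from 12.6 and 26.3 RPKM, with a wider interval from 0.03 to 2.05. Entpd1 (CD39, an ATP-degrading ectoenzyme) had 0.54 (0.03 to 1.05). Itgae, the integrin chain CD103 that binds epithelial E-cadherin, had 0.43 with an interval that spanned 0 (-0.03 to 0.89): 2 of its 4 peaks had about equal values in both tissues.

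Bach2, a transcription factor that holds back effector differentiation, was the exception in this list. Its coding exon peaks had 22.2 and 17.1 RPKM in spleen and 9.06 and 8.16 in LI, a log2 ratio of -1.17 (-1.47 to -0.87), and 37 of its 38 intron peaks were also higher in spleen. Foxp3 itself had 1 peak, 2520 bp long with its midpoint in exon 10 of 12, with 28.8 RPKM in spleen and 32.2 in LI. Its log2 ratio of 0.16 had an interval from -0.09 to 0.41. Nt5e (CD73, which makes adenosine) had 20.5 and 21.1 RPKM in a peak of 9516 bp.

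Genes of the T cell receptor complex and its proximal signalling had 13 peaks in 8 of 32 genes, and 12 of the 13 were higher in spleen. Only 1 (7.69%) was higher in LI, beside 51.9% of all coding exon peaks. Cblb gave 4 of the peaks and Ptprc 3. None of the 13 was over 2-fold higher in spleen, beside 6.67% of all coding exon peaks and 9.6% of all peaks. Ptprc, the phosphatase CD45, had 57.2 RPKM in spleen and 46.6 in LI over 3 peaks, a log2 ratio of -0.29 (-0.43 to -0.16). Prkcq, the kinase protein kinase C theta, had 24.7 and 20.3 RPKM, and Vav1, an exchange factor downstream of the receptor, 32.0 and 30.9. Nfatc2, a calcium-regulated transcription factor, was the one gene higher in LI, with 23.1 and 29.0 RPKM and a ratio of 0.33 (0.13 to 0.52). The median GC content of these peaks was 45.6%, and the median log2 ratio went from -0.12 to -0.06 with the GC classes levelled.

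The enzymes and readers of H3K36 methylation carried the mark in their own coding exons with little difference between tissues. Of 34 genes, 17 had a coding exon peak, 16 of 34 peaks were higher in LI, beside 51.9% of all coding exon peaks, and the median log2 ratio was -0.02. Setd2 had 1 peak with 12.5 RPKM in spleen and 13.1 in LI. Nsd1, which writes H3K36 dimethylation, had 65.3 and 55.1 RPKM over 4 peaks, a log2 ratio of -0.24 (-0.41 to -0.07). Kdm4c, a demethylase of H3K9 and H3K36, had 41.9 and 26.8 (-0.64, interval -1.10 to -0.17). Its 33 intron peaks had only -0.03, and with the GC classes levelled its median coding exon peak had -0.35. Phf19, a Polycomb-associated reader of H3K36me3, had 21.1 and 34.1 over 3 peaks (0.68, interval 0.12 to 1.25). These had a mean GC content of 56.2%, and with the GC classes levelled the median of the single peaks was 0.14. In Kdm4c and Phf19 the first ratio is that of sums and the levelled one a median of single peaks. Their distance therefore does not measure the part of GC content. The 4 intron peaks of Phf19 had a log2 ratio of 0.11. Dnmt3b, a DNA methyltransferase that binds the mark, and Msh6, a mismatch repair protein that does too, had 39.8 and 42.5, and 33.1 and 28.6 RPKM.

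Other chromatin regulators had 113 coding exon peaks in 52 of 74 genes. Of these, 34 (30.1%) were higher in LI, beside 51.9% of all coding exon peaks. Over 2-fold higher in spleen were 5, beside 9.6% of all peaks, and in LI 1, beside 9.05%. The median log2 ratio was -0.10, or -0.07 with the GC classes levelled. Splicing factors had 20 peaks in 15 of 61 genes, 11 of them (55.0%) higher in LI, beside 51.9% of all coding exon peaks. Their median log2 ratio was 0.01, while the 240 intron peaks of the same genes had -0.31. Among markers of other cells, coding exon peaks were limited to 1 in the epithelial list (Epcam) and 2 in the B cell list (Cd79a and Ighm), and there were none in the myeloid and the CD8 T and NK cell lists.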

How the data were processed

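The authors mapped 75-nt single-end reads to mm10, called peaks in each tissue with MACS2 at a p-value of 0.01 against input, merged the peaks of both tissues and averaged coverage tracks over each merged peak. The deposited table names its values raw counts, but they are mean RPKM per peak, so no count test was used. Bowtie2, MACS2, FastQC and bedtools are named by the authors without versions.

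Midpoints were matched to GENCODE M21 on GRCm38, and no peak ran beyond the end of any of the 21 chromosomes. Exon rank and length come from the longest coding transcript among those with the midpoint in their coding sequence. An exon classed as last can thus lie inside the gene, as in Dst, whose peaks fell in transcripts of 103 and of 24 exons. The background of coding bases used the longest coding transcript of each gene alone, so peaks over exons of other transcripts count without their bases. In the coding sequence of more than 1 gene lay 38 midpoints. Both columns were scaled to the mean of their totals. Log2 ratios used a pseudocount of 0.5 RPKM and understate the change of low peaks. The filter of 5 RPKM over both libraries removed no peak. Depth was computed from peaks aligned to 20-bp bins, the bin size of the tracks that the values themselves show. Counting intervals took a read to cover 200 bp, treat reads as independent molecules and cover counting error only. Scripts in Python 3 (numpy, pandas, scipy) were tested on simulated data. Named genes were the 10 with the most coding exon peaks, the 10 with the longest exon, the 10 at each end of the ratio, genes of the Treg, T cell receptor and H3K36 lists, and the 5 at each end of the exon minus intron difference. Some genes that these rules name are not reported here. The members, lists and rules were chosen with earlier results of these data known. Alternatives changed scaling, pseudocount, filter, membership, the intron peaks compared and GC correction.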

Additional observations from a re-analysis of the deposited data

How the results depend on the processing

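Of 90 alternative values for 11 results, 52 stayed within the interval of the reported median or within 1.5 times the reported count, 32 moved and 6 changed sign. The excess of coding exon over intron signal was above 0 under every alternative run in both libraries. Its log2 value, reported as 0.25, was 0.18 in spleen and 0.18 in LI with a pseudocount of 5, 0.19 and 0.22 for peaks with at least 50% of their length in coding sequence, 0.11 and 0.086 for peaks under 1 kb, 0.49 and 0.53 for those of 1 kb or more, 0.17 and 0.15 against introns of similar length, and 0.21 and 0.20 against introns of similar GC content. The 50% rule left 2555 peaks, with a median exon of 734 bp and a median GC content of 49.3%.

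The median LI over spleen ratio of coding exon peaks, reported as 0.025, had no stable sign. It was -0.0067 after correction for GC content, 0.069 with columns as deposited, 0.040 with the median of all peaks at 0, 0.043 from 20 RPKM upwards, 0.062 under the 50% rule, 0.0041 under 1 kb and 0.042 from 1 kb. Minus the introns of the same gene, reported as 0.020, it was -0.013 under 1 kb, -0.0011 against introns of similar GC content, -0.0043 against introns of similar length, -0.0045 after GC correction and -0.0025 in peaks with under 10% of bases in repeats, an alternative added after seeing the data. It was 0.054 under the 50% rule and 0.046 from 1 kb. The cause was not tested.

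Counts over 2-fold, 454 in LI and 415 in spleen, were 121 and 103 with a pseudocount of 5, 166 and 112 from 20 RPKM upwards, 265 and 255 under the 50% rule, and 45 and 8 from 1 kb, the last 3 over fewer peaks. The colonic signature median of 0.81 was 0.60 from 20 RPKM upwards, and the splenic one kept its sign throughout. No paired analysis was possible because each tissue has 1 library, which also leaves no replicate to leave out.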
